A study of Homo sapiens with 24 samples.

Results

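The genes described are 6 members of the p53 pathway on human chromosome 1, chosen by name from the p53 targets and regulators that lie there: GADD45A, BTG2, PHLDA3, SESN2, PLK3 and MDM4. All 6 of 6 have a row in the deposited table, which holds 11579 rows in all, 1131 of them on chromosome 1. The 24 libraries came from HEK293, a cell line long established from human embryonic kidney, and form 8 groups with 3 libraries each. Cells were untransfected, or transiently transfected with a flag-tagged pCMV plasmid: empty vector, EVI1-WT, which carries the zinc finger transcription factor EVI1, or EVI1-AQA, whose carboxy-terminal SQS phosphorylation motif is changed so that it cannot be phosphorylated. Each of these 4 transfection states was left untreated or exposed to 150 µM H2O2 for 8 h. Replicate numbers 1, 2 and 3 equal the batch numbers in the labels, so each batch holds 1 sample of every group. Whether same-group samples came from separate cultures is not stated for the sequencing, and the p-values then measure only the spread between these samples.

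The protein p53 is a transcription factor that is stabilised when DNA is damaged, for example by oxidants such as H2O2. It binds DNA at pairs of decamers and raises the transcription of genes that halt the cell cycle, repair DNA, restrain growth signals or start cell death. MDM4 binds p53 and holds its activity down. HEK293 cells carry early-region genes of adenovirus, whose products bind p53 and impair it, so the line is a limited model of this pathway, and all 8 groups share this limit. Several p53 targets, GADD45A and SESN2 among them, also respond to other stress signals.

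The libraries were read from the 3' ends of polyadenylated transcripts. The deposited values are log2 values whose mean is 0 in every row within each batch of 8, with a largest departure of 4.5e-06. A value therefore says how far a sample lay above or below the mean of its own batch, and neither levels between genes nor levels between batches can be compared. These are bulk samples, in which a change in every cell and a change in a share of the cells, such as the transfected ones, cannot be told apart. The depth per sample is unknown, and the number of samples limits the precision. Sample medians over all rows lay between -0.0079 and 0.017, and sample SDs between 0.25 and 0.42. Of the coding genes of chromosome 1, 50.7% are labels of a row, against 2.39% of its other annotated genes. On chromosomes 2 to 22 the shares were 15.7 to 34.6% and 11.6 to 19.03%, so row labels there are not separated by gene type as on chromosome 1, and only rows on chromosome 1 are described. The p53 gene itself, on another chromosome, and the transfected gene were not analysed here.

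Among the H2O2 libraries, 3 go against their labels in the row labelled CACNB3, a row that was high in the untreated EVI1-transfected samples. Its value was 4.36 in the library labelled empty vector replicate 2, -4.38 in the library labelled EVI1-WT replicate 2 and -2.60 in the library labelled EVI1-AQA replicate 1. They stayed in the groups that their labels give, and many results that rest on them, though not all, are given with and without them. The library labelled EVI1-AQA replicate 1 with H2O2 was also the highest of the 24 libraries in 5 of the 6 genes, all except SESN2.

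The genes lie at these positions in GENCODE v44 on GRCh38, and all are protein coding. SESN2 (ENSG00000130766) is at chr1:28259518-28282491 and PLK3 (ENSG00000173846) at chr1:44800377-44805990. GADD45A (ENSG00000116717) is at chr1:67685201-67688334. PHLDA3 (ENSG00000174307) lies on the minus strand at chr1:201464278-201469237, and the other 5 on the plus strand. BTG2 (ENSG00000159388) is at chr1:203305491-203309602 and MDM4 (ENSG00000198625) at chr1:204516379-204558120. To show how close each gene's surroundings come to the p53 consensus, the GRCh38 sequence from 2500 bases before to 2500 after the gene start was searched on both strands for 2 adjoining p53 consensus decamers, with no spacer allowed. The closest pair with at most 2 mismatches was, on the plus strand and with the 4-base core of each decamer in capitals:
GADD45A: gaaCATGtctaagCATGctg
BTG2: acgCATGttcaggCATGcat
PLK3: ggaCAAGgttggaGAAGttt
MDM4: gtgCTTGtttgaaAATGctt
The GADD45A sequence, at chr1:67686775-67686794 in an intron with its first base 1574 bases after the start, had 1 mismatch. The other 3 had 2 mismatches: BTG2 at chr1:203303642-203303661, with its first base at -1849 from the start, PLK3 at chr1:44798592-44798611, at -1785, and MDM4 at chr1:204516933-204516952, at 554 in an intron. Around SESN2 the closest pair had 3 mismatches, and around PHLDA3 none had 3 or fewer. Among 2060 windows of the same 5001 bases around coding genes of chromosome 1, 0.874% had a pair with at most 1 mismatch, 12.2% with at most 2 and 67.1% with at most 3. A match is a description of the letters and not a site of binding, and no measurement of p53 binding was made here. RefSeq promoter windows of 300 bases (GRCh38.p14) were given for 4 of the 6 genes, BTG2, MDM4, PLK3 and SESN2. None of these 4 holds a perfect decamer, and 6.63% of all 35116 promoter windows do.

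The comparison of H2O2 with untreated cells, averaged over the 4 transfection states, asked which of these genes responded to oxidative stress. GADD45A, which restrains the cell cycle and takes part in DNA repair after damage, rose by 1.00 on the log2 scale, or 1.99-fold (standard error 0.24, 95% interval 0.49 to 1.50, limma adjusted p = 0.0130), with a higher value in 11 of 12 pairs of samples. BTG2, PHLDA3, PLK3 and MDM4 had positive differences and SESN2 a negative one, and none of these 5 passed the test. Thus 1 of 6 genes was called at an adjusted p under 0.05, against 12.3% of all rows, or 6.62% called higher and 5.65% called lower, so the count by itself is near the background. By size GADD45A was the 4th highest of the 11579 rows, and by p it was the 503rd. The median difference was 0.26 over the 6 genes and 0.0016 over all rows. These medians were 0.13 and 0.0045 without the library labelled EVI1-AQA replicate 1 with H2O2, and without the 3 libraries 0.14 and 0.0059.

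In batch 1, the GADD45A values of untreated and H2O2 cells were -0.74 and 1.38 without transfection, -0.77 and 1.05 with empty vector, -1.43 and 0.36 with EVI1-WT, and -1.43 and 1.59 with EVI1-AQA. In batch 2 they were 0.75 and 0.77, -0.28 and 0.14, -0.86 and 0.53, and -0.79 and -0.25, in the same order of states. In batch 3 they were 0.018 and 0.35, -0.18 and -0.030, -0.22 and 0.15, and -0.031 and -0.056. The H2O2 samples lay above all untreated samples of their state with empty vector and with EVI1-WT, and the groups overlapped in untransfected and EVI1-AQA cells. In both separated states the H2O2 library of batch 2 goes against its label, and how many of all rows separate likewise was not counted. The test of a difference among states, given with the state responses, did not pass. The single pair that was not higher was EVI1-AQA in batch 3.

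**Figure D1:**
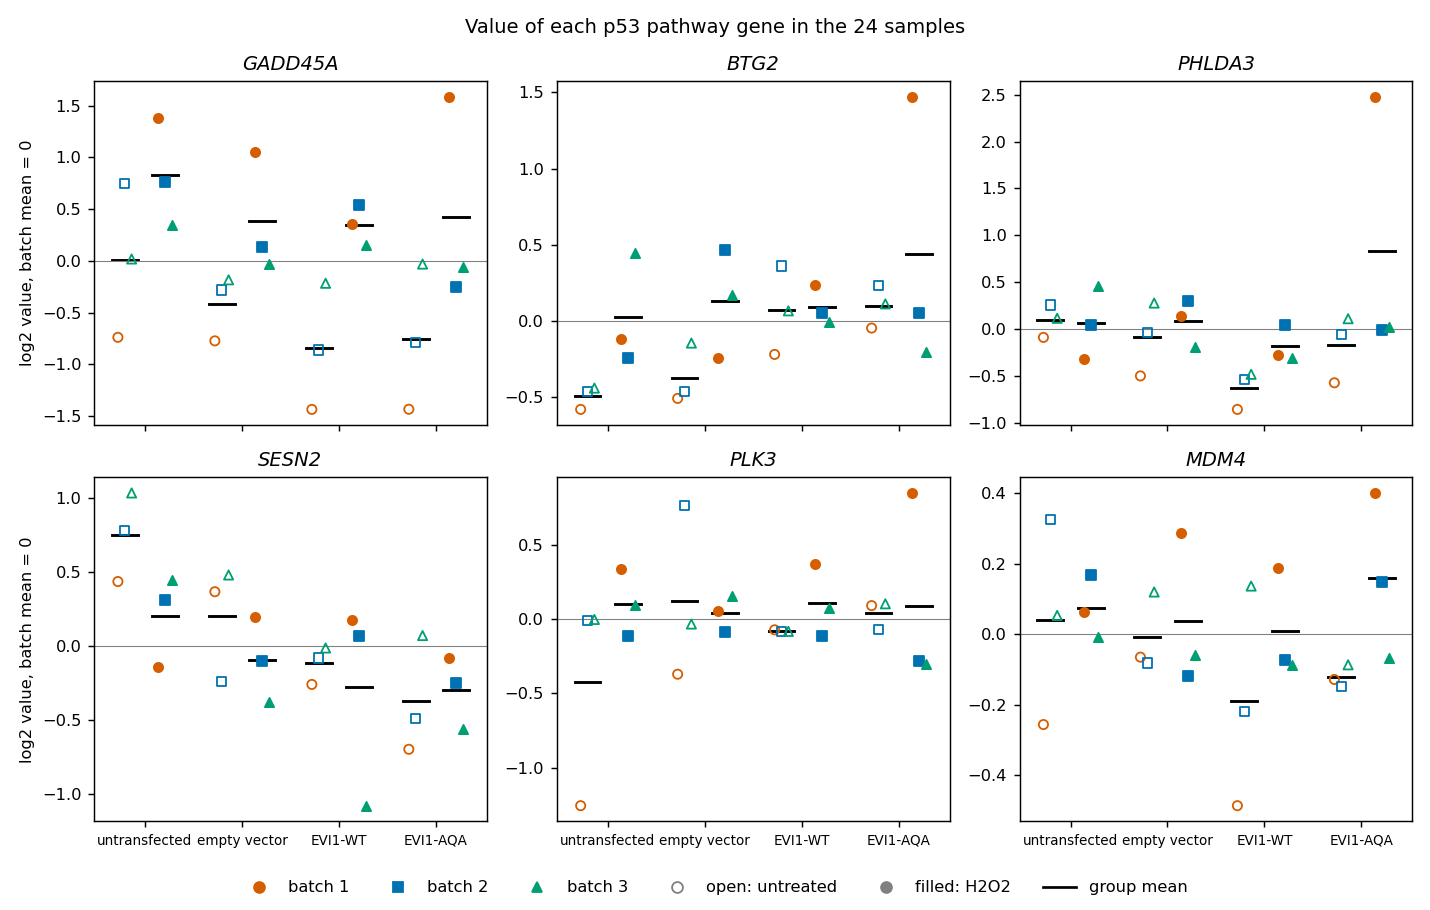
Each panel plots 1 gene: the log2 value on the y axis, with the mean of each batch at 0, in the 8 groups on the x axis. Points are samples by batch, open when untreated and filled with H2O2, and black lines are group means of 3. The EVI1-AQA sample of batch 1 with H2O2 is the highest point for all genes but SESN2, at 2.48 for PHLDA3.

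The size of the GADD45A response differed widely between batches. Averaged over the 4 states it was 2.19 in batch 1, 0.59 in batch 2 and 0.21 in batch 3 (standard error 0.25 each). The 4 differences in batch 1, from 1.79 to 3.02, lay above all 8 of the other batches, of which the highest was 1.40 in EVI1-WT cells of batch 2. The pairs at 3.02 and 1.40 hold libraries that go against their labels, as does empty vector in batch 2 (0.42). Without these pairs, batch 1 ranged from 1.79 to 2.12, and the highest in the other batches was 0.53, in EVI1-AQA cells of batch 2. Among all rows the averaged response of GADD45A was the 3rd highest in batch 1, the 206th in batch 2 and the 2008th in batch 3. A limma F-test of the difference between batches, added after the values were seen, gave an adjusted p of 0.147 for GADD45A. Without the library labelled EVI1-AQA replicate 1 with H2O2, the response in batch 1 was 1.91, and the F-test gave an adjusted p of 0.455.

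The other 5 genes also had their highest averaged response in batch 1, although that of SESN2 was near 0. MDM4 had averaged responses of 0.47, 0.062 and -0.11 in batches 1, 2 and 3, and PLK3, a stress-responsive kinase of the polo-like family, had 0.80, -0.30 and 0.0085. Without the 3 libraries that go against their labels, MDM4 had 0.21 in batch 2 and PLK3 had 0.58 in batch 1. For PHLDA3, a pleckstrin homology domain protein that restrains AKT, the averaged responses were 1.01, 0.19 and -0.0089. Without the EVI1-AQA replicate 1 library the PHLDA3 value in batch 1 was 0.34. BTG2, an antiproliferative protein that promotes the deadenylation of mRNA, gave 0.68, 0.16 and 0.20, and the value in batch 1 was 0.24 without that library. SESN2, a sestrin that restrains mTOR signalling and supports antioxidant defence, gave 0.077, 0.015 and -0.79, and all 4 of its differences in batch 3 were negative. The F-test of batches had an unadjusted p under 0.05 for 4 of the 6 genes (GADD45A, MDM4, PLK3 and SESN2), against 7.04% of all rows, and 0 of 6 had an adjusted p under 0.05, against 0.0345% of all rows. Without the library labelled EVI1-AQA replicate 1 with H2O2, the same 4 of 6 genes had an unadjusted p under 0.05, against 5.76% of all rows. Without the 3 libraries that go against their labels, 1 of the 6 genes, GADD45A, had an unadjusted p under 0.05, against 4.48% of all rows. Over all rows the SD of the averaged response was 0.308, 0.269 and 0.237 in batches 1, 2 and 3, and 44, 12 and 8 rows rose by more than 1. What differs between the batches is not stated, and its part in these results was not tested.

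**Figure D2:**
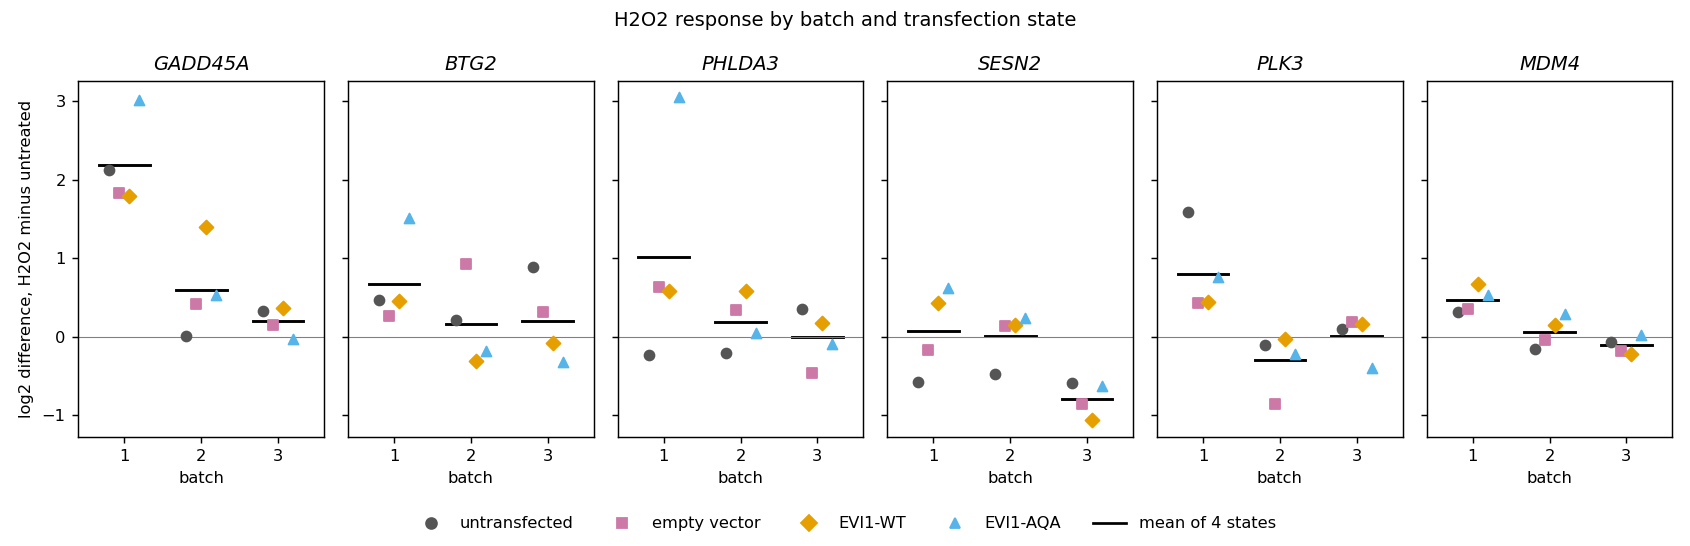
Each panel plots, for 1 gene, the log2 difference of H2O2 minus untreated cells on the y axis in the 3 batches on the x axis. Coloured points are the 4 transfection states and black lines their means; for GADD45A the means fall from 2.19 in batch 1 to 0.59 and 0.21, and for SESN2 all 4 points of batch 3 lie below 0.

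The call of GADD45A depended on which batches were kept. Without batch 1 the averaged response was 0.40, with an adjusted p of 0.202 from limma. Without batch 2 it was 1.20 (adjusted p = 0.0716), and without batch 3 it was 1.39 (adjusted p = 0.0236). Without the library labelled EVI1-AQA replicate 1 with H2O2 it was 0.83 (adjusted p = 0.0150), and without all 3 libraries that go against their labels it was 0.87 (adjusted p = 0.0300). The response of GADD45A was positive in each of these fits, and its call was lost without batch 1 and without batch 2. Over all rows, 177, 238 and 686 were called without batches 1, 2 and 3, 941 without the 3 libraries and 1471 without the EVI1-AQA library alone, against 1420 with all samples.

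**Figure D3:**
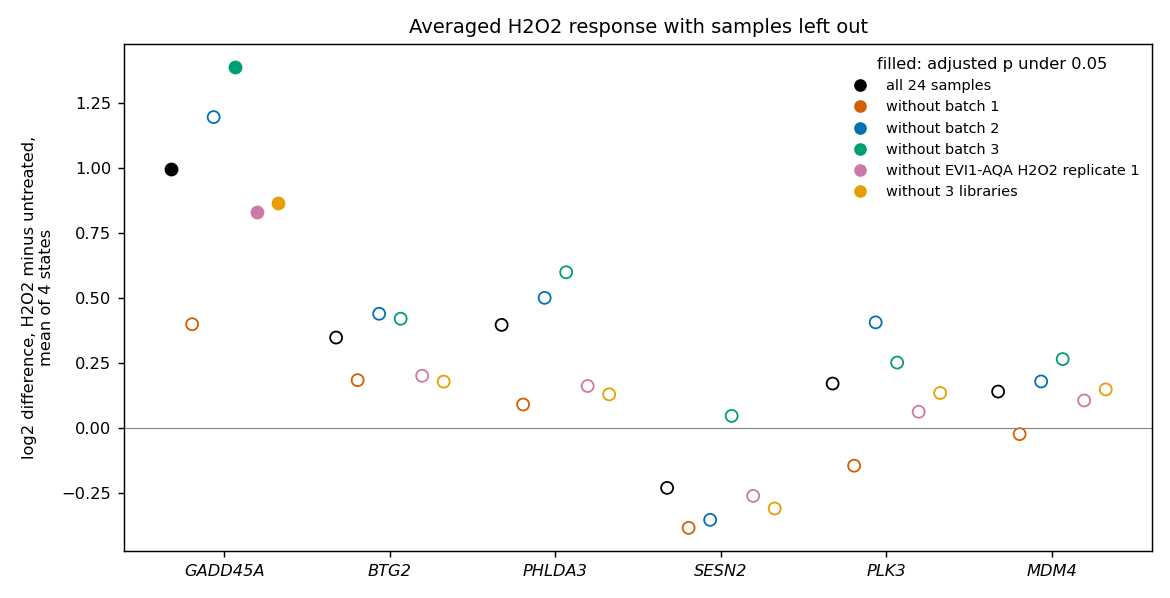
The averaged log2 difference of H2O2 minus untreated cells (y axis) is plotted for the 6 genes (x axis) with all 24 samples and with a batch, 1 library or 3 libraries left out. Filled points have a limma adjusted p under 0.05, which holds only for GADD45A, at 1.00 with all samples and in 3 of the 5 other fits.

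For the 5 genes that were not called, the values with all samples were as follows. PHLDA3 differed by 0.40 (standard error 0.22, adjusted p = 0.256) and was higher in 8 of 12 pairs. Its untreated values in batches 1, 2 and 3 were -0.089, 0.26 and 0.11 without transfection, -0.50, -0.037 and 0.28 with empty vector, -0.86, -0.54 and -0.48 with EVI1-WT, and -0.57, -0.056 and 0.11 with EVI1-AQA. With H2O2 they were -0.32, 0.045 and 0.46, then 0.14, 0.30 and -0.19, then -0.27, 0.042 and -0.31, and for EVI1-AQA 2.48, -0.0098 and 0.019. The value of 2.48 stood alone, since the next highest of the 24 was 0.46. Only with EVI1-WT did the H2O2 samples of PHLDA3 all lie above the untreated ones. The H2O2 sample at 0.042 there is a library that goes against its label. The test of a difference among states did not pass for PHLDA3. Without the EVI1-AQA replicate 1 library, the averaged difference was 0.16.

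BTG2 differed by 0.35 (standard error 0.15, 95% interval 0.024 to 0.67) and had an adjusted p of 0.148 from limma. Without the library labelled EVI1-AQA replicate 1 with H2O2 the difference was 0.20 (adjusted p = 0.174), and without the 3 libraries it was 0.18 (adjusted p = 0.283). At an unadjusted p under 0.05 with all samples, GADD45A and BTG2 passed, or 2 of 6 genes against 27.8% of all rows. Without the library labelled EVI1-AQA replicate 1 with H2O2, 2 of 6 passed, and without the 3 libraries GADD45A alone did. The share of all rows is not given for those fits. The untreated BTG2 values in batches 1, 2 and 3 were -0.58, -0.46 and -0.44 in untransfected cells, -0.51, -0.46 and -0.14 with empty vector, -0.22, 0.36 and 0.067 with EVI1-WT, and -0.046, 0.23 and 0.11 with EVI1-AQA. With H2O2 they were -0.12, -0.24 and 0.44, then -0.24, 0.47 and 0.17, then 0.24, 0.051 and -0.0068, and for EVI1-AQA 1.47, 0.051 and -0.20. All 6 pairs of untransfected and empty vector cells were higher with H2O2, by 0.22 to 0.93. In EVI1-WT and EVI1-AQA cells the pairs of batch 1 were higher and those of batches 2 and 3 lower. Of these pairs, empty vector in batch 2 (0.93), EVI1-WT in batch 2 (-0.31) and EVI1-AQA in batch 1 (1.52) hold the 3 libraries that go against their labels. Without them, the other 5 pairs of untransfected and empty vector cells were still higher, by 0.22 to 0.88, and with the EVI1 constructs only EVI1-WT in batch 1 was. This split was seen in the values, and the test of a difference among states, given with the other state responses, did not pass.

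The differences of the remaining 3 genes were smaller. PLK3 differed by 0.17 (standard error 0.17, adjusted p = 0.541), and its pairs ranged from -0.85, with empty vector in batch 2, to 1.59, in untransfected cells of batch 1. The pair at -0.85 holds a library that goes against its label, and the next lowest was -0.40, with EVI1-AQA in batch 3. The PLK3 difference was 0.062 without the library labelled EVI1-AQA replicate 1 with H2O2, and 0.13 without the 3 libraries. MDM4 differed by 0.14 (standard error 0.090, adjusted p = 0.329). The MDM4 difference was 0.11 without the library labelled EVI1-AQA replicate 1 with H2O2, and 0.15 without the 3 libraries. All 4 of its pairs in batch 1 were higher with H2O2, by 0.32 to 0.67, as were 3 of the 8 pairs in the other batches. SESN2 differed by -0.23 (standard error 0.15, 95% interval -0.54 to 0.080, adjusted p = 0.328) and was lower in 7 of 12 pairs. Its difference was -0.26 without the library labelled EVI1-AQA replicate 1 with H2O2, and -0.31 without the 3 libraries.

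Within single transfection states the response of GADD45A was 0.82 in untransfected, 0.80 in empty vector, 1.19 in EVI1-WT and 1.18 in EVI1-AQA cells, each with a standard error of 0.48. Without the library labelled EVI1-AQA replicate 1 with H2O2, the EVI1-AQA value was 0.51, and without all 3 libraries it was 0.50. None of the 6 genes was called in any state by limma's adjusted p, and the share of all rows called was 0.00864%, 0.354%, 0.0345% and 0.553% in that order. At an unadjusted p under 0.05, 0 of 6 passed in untransfected cells (12.6% of all rows) and 0 of 6 with empty vector (14.6%). With EVI1-WT, 1 of 6 passed, GADD45A, whose adjusted p was 0.330 (12.0% of all rows). With EVI1-AQA, 2 of 6 passed, GADD45A and PHLDA3, whose adjusted p were 0.266 and 0.297 (14.8%). The PHLDA3 response of 1.00 in EVI1-AQA cells is the mean of 3.05, 0.047 and -0.091, and without batch 1 it was -0.022.

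Whether the response depended on the transfection state was tested directly. A limma F-test for any difference among the 4 states called 0 of the 6 genes (adjusted p from 0.893 to 0.992), against 0.00864% of all rows, and 0 of 6 had an unadjusted p under 0.05, against 8.25%. The lowest adjusted p was 0.418 without the EVI1-AQA replicate 1 library and 0.585 without the 3 libraries, both for BTG2. For GADD45A, the response with EVI1-AQA minus that with EVI1-WT was -0.0096, with a 95% interval from -1.44 to 1.42. This small difference rests on the library labelled EVI1-AQA replicate 1 with H2O2, and without it the value was -0.67 (standard error 0.60, adjusted p = 0.749). That with empty vector minus that without transfection was -0.021, with an interval from -1.45 to 1.41, and 0.17 without the 3 libraries. Intervals of this width leave room for large differences in either direction. The narrowest standard error of such a difference among the 6 genes was 0.25, for MDM4, and the widest 0.68, for GADD45A.

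The transfection states were then compared within each treatment, to ask what the plasmids and the EVI1 constructs did to these genes. The only gene called with all samples was SESN2. Its untreated means were highest in untransfected cells, with lower means in the order empty vector, EVI1-WT, EVI1-AQA. Its untreated values in batches 1, 2 and 3 were 0.44, 0.78 and 1.03 in untransfected cells (mean 0.75 ± 0.30, SD, n = 3) and 0.37, -0.24 and 0.48 with empty vector (0.20 ± 0.39). They were -0.26, -0.081 and -0.013 with EVI1-WT (-0.12 ± 0.13) and -0.70, -0.49 and 0.071 with EVI1-AQA (-0.37 ± 0.40). Neither EVI1 group overlapped the untransfected group, and how many of all rows do likewise was not counted. The untransfected untreated libraries of replicates 2 and 3 had SDs over all rows of 0.42 each, the highest of the 24 libraries. EVI1-AQA minus untransfected cells was -1.12 (standard error 0.30, limma adjusted p = 0.0270, lower in 3 of 3 batches), and EVI1-WT minus untransfected cells was -0.87 (adjusted p = 0.0978). Both comparisons share the untransfected samples, and both were added after the values were seen.

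The SESN2 difference includes the plasmid as well as EVI1. Empty vector minus untransfected cells was -0.55 (adjusted p = 0.478), and EVI1-AQA minus empty vector cells was -0.57 (adjusted p = 0.454), and neither passed. With H2O2 the SESN2 values were -0.14, 0.31 and 0.44 in untransfected cells, 0.20, -0.10 and -0.38 with empty vector, 0.18, 0.066 and -1.08 with EVI1-WT, and -0.078, -0.25 and -0.56 with EVI1-AQA. EVI1-AQA minus untransfected cells was then -0.50, with an adjusted p of 0.436. The 3 untransfected pairs of SESN2 had H2O2 minus untreated differences between -0.59 and -0.47, with a mean of -0.55 and an adjusted p of 0.461. The call in untreated cells was lost after quantile normalization, at -0.99 and an adjusted p of 0.0684, and without any 1 of the batches, at -1.05 to -1.20 and adjusted p from 0.0831 to 0.186. In a fit without moderation, made on the samples of the groups compared only, its adjusted p was 0.457. That fit changes the samples as well as the moderation, so the part of each cannot be told apart.

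In the other untreated comparisons, BTG2 was 0.59 higher in EVI1-AQA than in untransfected cells (standard error 0.31, adjusted p = 0.225). All 3 EVI1-AQA values lay above all 6 of untransfected and empty vector cells, and how many of all rows do likewise was not counted. Without the library labelled EVI1-AQA replicate 1 with H2O2, which changes the spread and not the BTG2 difference, the adjusted p was 0.0472. The limma adjusted p for BTG2 was 0.136, 0.484 and 0.404 without batches 1, 2 and 3. PHLDA3 had its lowest untreated group mean with EVI1-WT, at -0.63 ± 0.20, against 0.094 ± 0.17 in untransfected cells, a difference of -0.72 (adjusted p = 0.349). At the same difference, the limma adjusted p for PHLDA3 was 0.0327 without the library labelled EVI1-AQA replicate 1 with H2O2. It was 0.0424 without the 3 libraries that go against their labels. The shares of all rows called in these comparisons are not given for the fits with samples left out. In untreated cells the mean of GADD45A was 0.0096 without transfection, -0.41 with empty vector, -0.84 with EVI1-WT and -0.75 with EVI1-AQA, with SDs from 0.32 to 0.74. No difference between these GADD45A means passed the test.

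Across the 6 untreated comparisons with all samples, 1 of 36 tests of the 6 genes was called, the SESN2 difference. Called shares of all rows were 8.84% for EVI1-AQA minus untransfected and 3.47% for EVI1-WT minus untransfected cells. They were 0.0% for empty vector minus untransfected, EVI1-WT minus empty vector, EVI1-AQA minus empty vector and EVI1-AQA minus EVI1-WT. At an unadjusted p under 0.05 SESN2 passed in EVI1-AQA minus untransfected (27.1% of all rows) and in EVI1-WT minus untransfected cells (22.2%). No gene of the 6 passed by limma in the other 4, where 12.1%, 5.01%, 11.8% and 3.37% of all rows did so, in the order given.

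Across the same 6 comparisons with H2O2, 0 of 36 tests by limma had an adjusted p under 0.05. The called shares of all rows were 0.0% for empty vector minus untransfected, EVI1-WT minus empty vector and EVI1-WT minus untransfected cells, 0.00864% each for EVI1-AQA minus empty vector and EVI1-AQA minus EVI1-WT, and 0.328% for EVI1-AQA minus untransfected cells. At an unadjusted p under 0.05, 1 of 36 passed, PHLDA3 in EVI1-AQA minus EVI1-WT cells, with a difference of 1.01 (adjusted p = 0.551), and 8.33% of all rows passed there. This value includes the sample of batch 1 at 2.48, and without that library it was 0.068. In the other 5 comparisons 8.39%, 3.23%, 16.4%, 7.16% and 15.8% of all rows passed, for empty vector minus untransfected, EVI1-WT minus empty vector, EVI1-WT minus untransfected, EVI1-AQA minus empty vector and EVI1-AQA minus untransfected cells.

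Other p53 pathway genes of chromosome 1 were read from a list of 17, of which 16 had a row. PADI4 had none, and COP1 was found under its older symbol RFWD2. Of the 8 other p53 targets with a row, 3 rose with H2O2 averaged over the states and 0 fell, and of the 8 regulators and partners 0 passed the limma test in either direction. EPHA2, a receptor tyrosine kinase, rose by 0.75 (standard error 0.18, adjusted p = 0.0136, higher in 10 of 12 pairs). ATF3, a stress-induced transcription factor, rose by 0.54 (standard error 0.17, adjusted p = 0.0415, higher in 8 of 12 pairs). RNF19B, an E3 ubiquitin ligase, rose by 0.37 (standard error 0.10, adjusted p = 0.0288, higher in 9 of 12 pairs). Of the rows on chromosome 1, 9.02% were called higher and 5.66% lower. The median difference was 0.16 over the 8 targets, 0.016 over the 8 regulators and 0.0016 over all rows. Without the 3 libraries that go against their labels, 1 of the 3 calls was left, EPHA2, and without batch 1 or batch 2, 0 were left. The ATF3 call was also lost without the library labelled EVI1-AQA replicate 1 with H2O2 alone (limma adjusted p = 0.0514).

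The batches differed between these 3 targets. EPHA2 had averaged responses of 1.54, 0.36 and 0.35 in batches 1, 2 and 3, and ATF3 of 1.19, 0.49 and -0.057, so both were highest in batch 1 as GADD45A was. RNF19B had 0.15, 0.47 and 0.48, and was lowest there. Among the targets that did not pass, S100A2, a calcium-binding protein, differed by 0.22, and CASP9, the initiator caspase of the mitochondrial pathway, by 0.095. SFN, the 14-3-3 sigma protein that holds cells before mitosis, differed by -0.11, FUCA1, a lysosomal fucosidase, by -0.13, and ALDH4A1, a mitochondrial enzyme of proline breakdown, by -0.25.

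Among the regulators, UBE4B and COP1, ubiquitin ligases that target p53 for breakdown, differed by -0.26 (adjusted p = 0.0665) and -0.23 (adjusted p = 0.0827), each lower in 9 of 12 pairs. PARP1, which senses DNA breaks, differed by -0.16 (adjusted p = 0.127). It was lower in 11 of 12 pairs. TP53BP2, which binds p53 and favours its apoptotic targets, differed by 0.18, TP73, a relative of p53, by 0.16, and HIPK1, a kinase of the nucleus, by 0.11. The ribosomal proteins RPL11 and RPL5, which bind the ubiquitin ligase of p53 under ribosomal stress, differed by 0.042 and -0.0090, values that are uncertain because both genes have processed pseudogenes that can share reads. UBE4B passed the test without the replicate block (adjusted p = 0.0387) and after quantile normalization (adjusted p = 0.0318).

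**Figure D4:**
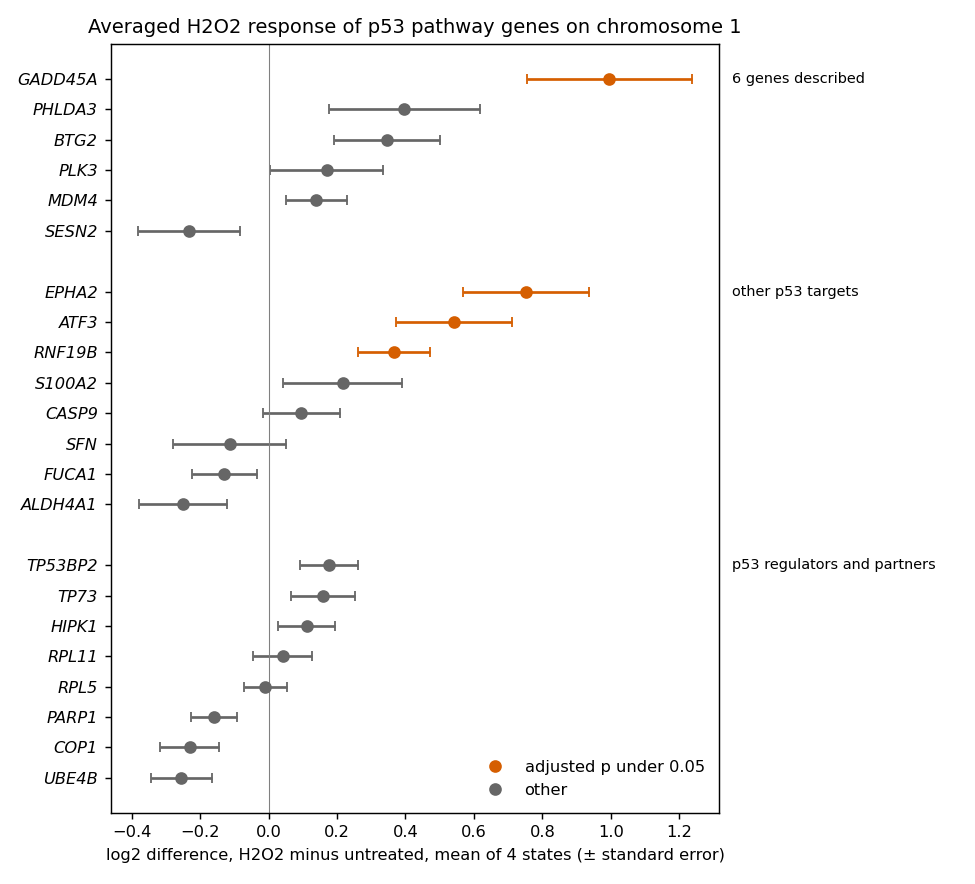
The averaged log2 difference of H2O2 minus untreated cells with its standard error (x axis) is plotted for the 6 genes described and the 16 others of the list (y axis), grouped by role. Orange points have a limma adjusted p under 0.05: GADD45A at 1.00, EPHA2 at 0.75, ATF3 at 0.54 and RNF19B at 0.37.

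Likeness between rows was described by Pearson's r over the 24 samples, among 1044 coding rows of chromosome 1, and carries no test, since samples share batches, centring and groups. GADD45A was most like PTBP2 (r = 0.796), PRKAA2 (0.779) and MDM4 (0.769), and MDM4 in turn was most like GADD45A, followed by SLC35D1 (0.723) and HEATR1 (0.710). BTG2 was most like MYSM1 (0.732), FUBP1 (0.701) and TAF13 (0.671). For PHLDA3 they were NHLH2 (0.712), TP73 (0.680) and TMEM222 (0.659), for SESN2 G0S2 (0.810), LRRC8D (0.801) and NBPF1 (0.786), which belongs to a family of near-identical copies, and for PLK3 UBE2J2 (0.745), EPHA2 (0.662) and MYSM1 (0.646). Between members, the r of 0.769 for GADD45A and MDM4 was 0.716 without the library labelled EVI1-AQA replicate 1 with H2O2, while that of BTG2 and PHLDA3 went from 0.646 to 0.083. For the other rows named, r was not computed without that library. In it PHLDA3 was at 2.48 and BTG2 at 1.47, against next highest values of 0.46 and 0.47, so their likeness to those rows may rest on it. SESN2 had an r between -0.26 and 0.35 with the other 5.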

How the data were processed

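The values used are log2 values that the authors deposited in 1 table of 24 HEK293 samples. Per the study's methods and the labels, 3'-end libraries (QuantSeq FWD) were annotated with Ensembl release 90 on GRCh38, and Qlucore Omics Explorer 3.3 kept transcripts above an FPKM of 10. The aligner is not given in the sources used here. The values were taken to be on a log2 scale. Groups and batches come from the labels, and the replicate number pairs samples because the labels name it as a batch.

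A limma model (version 3.58.1, R 4.3.3) with 8 group means and the replicate as a block was fitted to the 11579 rows of all 24 samples, with two-sided tests and Benjamini-Hochberg adjustment over all rows at 0.05. The fit was tested on simulated data. Batches were compared by a limma F-test of batch by H2O2. Python 3.11.15, pandas 2.3.3 and matplotlib 3.10.9 did the rest. GENCODE v44, another release than the authors', gave positions, and 94.1% of rows were found in it.

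The members and lists were chosen with earlier results of these data known. Named are the 6 members, the listed p53 genes on chromosome 1, and for each member the 3 coding rows there with the highest r. The row labelled CACNB3 is named because 3 libraries go against their labels in it. Alternatives were no replicate block, median centring, quantile normalization and a fit without moderation to the samples of the groups compared only. Others left out each replicate, the 3 libraries or 1 of them. The last of these, the batch comparison and the comparisons of EVI1 with untransfected cells were added after the values were seen.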

Additional observations from a re-analysis of the deposited data

How the results depend on the processing

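Without the replicate block, 1 of the 6 genes was called for the averaged H2O2 response, GADD45A at an adjusted p of 0.00617, and the block changed no call of the 6 genes. It did change the list, where 1 row was called lower without the block and 1 after quantile normalization. The share of all rows called is not given for those fits, so these counts cannot be set beside a background. Without the 3 libraries that go against their labels, 1 list row was called higher, and differences turned sign for BTG2 with EVI1-AQA (-0.24), SESN2 with EVI1-AQA (-0.031), PLK3 with empty vector (0.052) and with EVI1-AQA (-0.41), and RPL5 (0.012), none of them past the test in either fit.

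Leaving out each replicate, or the library labelled EVI1-AQA replicate 1 with H2O2, gave averaged responses of 0.40 to 1.39 for GADD45A, -0.025 to 0.26 for MDM4, -0.39 to 0.046 for SESN2, -0.15 to 0.41 for PLK3, -0.044 to 0.19 for RPL11, -0.066 to 0.053 for RPL5 and -0.0033 to 0.53 for S100A2. Of the 6 genes 0 to 1 and of the list 0 to 2 rows were called higher. In single states the ranges that crossed 0 were, for untransfected cells, -0.11 to 0.13 (MDM4), -0.22 to 0.069 (PHLDA3) and -0.0062 to 0.84 (PLK3). With empty vector they were -0.11 to 0.16 (MDM4), -0.065 to 0.49 (PHLDA3) and -0.33 to 0.31 (PLK3). With EVI1-WT they were -0.19 to 0.19 (BTG2), -0.040 to 0.41 (MDM4) and -0.46 to 0.29 (SESN2). With EVI1-AQA they were -0.25 to 0.67 (BTG2), -0.022 to 1.55 (PHLDA3), -0.19 to 0.43 (SESN2) and -0.39 to 0.27 (PLK3). None of these single-state values passed the test in any of the fits. The causes were not tested. The depth is unknown, so no detection limit can be given, and with 3 samples a group the standard errors of single-state responses, 0.18 to 0.48, set what could be called.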
